A study of Saccharomyces cerevisiae with 3 samples.

Results

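The 25S rRNA is the large RNA of the yeast 60S ribosomal subunit, and the region described here ran across nucleotides 2401 to 2990 of it, about domain V. The members were chosen by position alone: every nucleotide of the 25S rRNA between those bounds, 590 of 3396 nucleotides of 25S and of 6983 listed positions in 8 ribosomal RNA segments. Positions are counted from nucleotide 1 of the gene as the files list it. That gene is RDN25-2 (YNCL0021C), an rRNA gene on chromosome XII without coding exons. The annotation also holds RDN25-1, and reads from near-identical copies cannot be told apart in the single copy that the files list.

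Domain V holds the peptidyl transferase centre, the place where the ribosome joins amino acids. The P loop and the A loop of this domain bind the CCA ends of the tRNAs in the P site and the A site, and strands of the central ring surround the reaction site. Parts of the domain are covered by proteins or by folded RNA in the finished subunit, and some of its uridines are modified in yeast.

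The libraries came from CRAC, in which a tagged protein is crosslinked to RNA in living cells, purified under denaturing conditions and sequenced through the RNA fragments that stay bound. Get4 is a subunit of the GET pathway, which hands tail-anchored proteins to the endoplasmic reticulum membrane. It carried a C-terminal HTP tag (His-TEV-Protein A) at its own gene in 2 libraries, Get4-HTP 1 and Get4-HTP 2, and the untagged wild type strain BY4741, the background of both, gave 1 library. Cells of all 3 libraries grew exponentially with little uracil and with 4-thiouracil as label, and were irradiated at 365 nm, so that a crosslinked uridine is read as a T-to-C substitution. The Get4-HTP libraries were amplified with 24 PCR cycles and the wild type library with 35. Get4-HTP 1 and wild type carried one sequencing run code in the file headers, and Get4-HTP 2 carried another. Get4-HTP 1 had 614992 mapped reads, 19270 of them on the 25S rRNA, Get4-HTP 2 had 933943, 21411 of them there, and wild type had 107659, 8571 of them there. With 1 wild type library there was no replicate check of the background and no p-value, and the intervals given are 95% intervals for counting error only. All recorded substitutions lay at T positions and no deletion was recorded. The number of substitutions on 25S, 19265 in Get4-HTP 1, 21410 in Get4-HTP 2 and 8567 in wild type, was close to the number of reads, so each read was counted about once by its substitution and many times by its hits, the reads covering each nucleotide.

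The sequences of both peaks of the region are shown because the results turn on them. They are given 5′ to 3′ in DNA letters as the deposited files list them, with the leading crosslinked T positions in capitals and everything else in lower case.
First peak, 2532 to 2581: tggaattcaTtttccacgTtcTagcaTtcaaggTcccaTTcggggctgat
Second peak, 2853 to 2888: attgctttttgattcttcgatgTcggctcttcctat

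The landmarks of the peptidyl transferase centre are shown because they fix the region to domain V and because the crosslinks were read against them. Each motif below, in capitals with 10 nucleotides or fewer on each side, was searched on the sense strand of the 25S rRNA and was found at 1 place. The 5 landmarks searched all lay inside the bounds, and other strands of the ring were not searched.
P loop, motif CTGGGGCGG at 2616 to 2624: gggagtttggCTGGGGCGGcacatctgtt
Catalytic strand of the central ring, motif GATAACTGG at 2816 to 2824: ttaccacaggGATAACTGGcttgtggcag
Second strand of the ring, motif GATGTCGG at 2871 to 2878: ttgattcttcGATGTCGGctcttcctat
A loop, motif GTTCACCCA at 2922 to 2930: gcgttggattGTTCACCCActaataggga
Strand of the ring 3′ of the A loop, here called the third, motif GGGTTTAGA at 2950 to 2958: aacgtgagctGGGTTTAGAccgtcgtgag

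The wild type library, which had no tagged protein, carried a clear domain V profile of its own, and the Get4-HTP profiles were read against it. Hits per nucleotide in the region had a median of 61 and a maximum of 1019 in Get4-HTP 1, a median of 36 and a maximum of 223 in Get4-HTP 2, and a median of 53 and a maximum of 825 in wild type. The region was covered at every position, and the lowest depth was 7 hits in Get4-HTP 1, 5 in Get4-HTP 2 and 4 in wild type. Get4-HTP 1 and wild type had their maximum at the same nucleotide, 2550, and Get4-HTP 2 had its own at 2875, in the second peak.

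**Figure D1:**
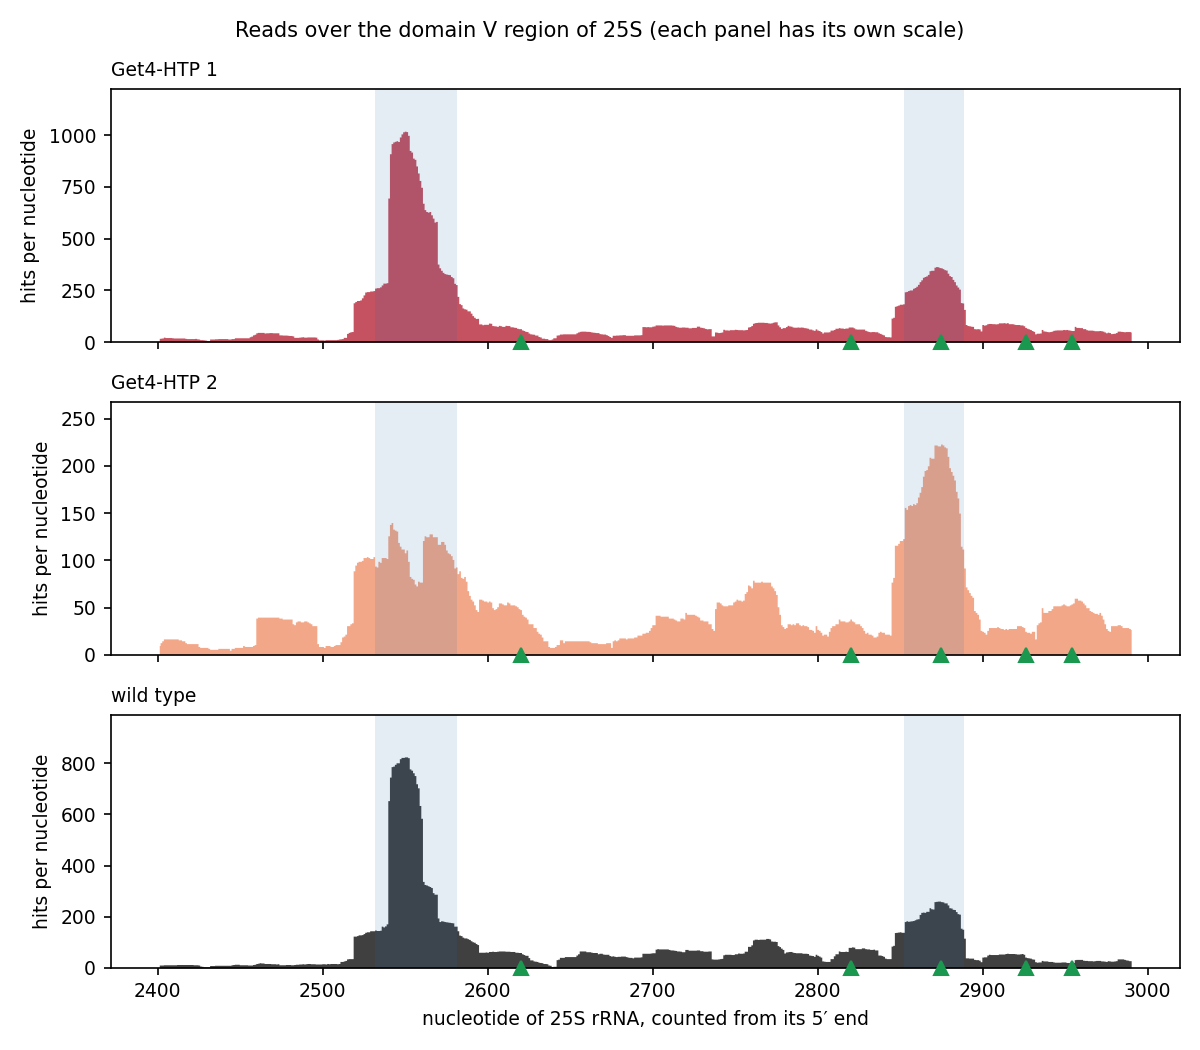
Hits (reads covering each nucleotide) against the position in the 25S rRNA for Get4-HTP 1, Get4-HTP 2 and wild type, from top to bottom, each on its own vertical scale. Blue bands mark the peaks at 2532 to 2581 and 2853 to 2888 and green triangles mark the 5 landmarks. The first peak reaches 1019 hits in Get4-HTP 1 and 825 in wild type but 140 in Get4-HTP 2, while the second peak stands out in all 3 libraries.

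Scaled to mapped reads, the region lay far below wild type in each Get4-HTP library. For each 1000000 mapped reads, Get4-HTP 1 gave 3935 substitutions in the region and Get4-HTP 2 gave 1008, against 18020 in wild type, ratios of 0.218 and 0.0559. The hits gave ratios of 0.234 and 0.0644. These numbers also contain the share of each library that fell on ribosomal RNA at all, which other RNAs of the library set, and fewer bound rRNA fragments cannot be told apart from more of other RNAs.

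Within the 25S rRNA the difference was smaller but had the same direction. For this share, nucleotides 1391 to 1454, a stretch outside the region, were left out of the total. The region then held 2420 of 13821 substitutions in Get4-HTP 1, or 17.5% (Wilson interval 16.9 to 18.2), and 941 of 7515 in Get4-HTP 2, or 12.5% (11.8 to 13.3), against 1940 of 8108 in wild type, or 23.9% (23.0 to 24.9). The ratio to wild type was 0.732 (0.694 to 0.772) for Get4-HTP 1 and 0.523 (0.487 to 0.562) for Get4-HTP 2. These ratios averaged 0.628 ± 0.147 (SD, n = 2). The region makes up 17.7% of the length of the 25S rRNA and 164 of its 856 T positions, 19.2%. Set against length, both Get4-HTP libraries were below the mean of the rest of 25S, at a relative depth of 0.931 and 0.610, and wild type was above it, at 1.29.

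The size of that difference depended on what else lay on the 25S rRNA, and for Get4-HTP 1 it nearly vanished under another total. Domain VI (about nucleotides 2991 to 3396) held 44.6% of the 25S substitutions in Get4-HTP 1 and 10.4% in Get4-HTP 2, against 27.7% in wild type. Domain II (about 651 to 1390) held 13.3% and 42.5%, against 17.4% in wild type, and in Get4-HTP 2 its highest position was nucleotide 1390 with 2316 hits, next to the stretch left out. Without domains II and VI, the region held 41.6% (40.3 to 42.9) of the remaining substitutions in Get4-HTP 1 and 26.6% (25.1 to 28.1) in Get4-HTP 2, against 43.6% (42.1 to 45.0) in wild type. The ratios on that total were 0.954 (0.912 to 0.998) for Get4-HTP 1 and 0.610 (0.572 to 0.650) for Get4-HTP 2, so the Get4-HTP libraries differed from each other more than Get4-HTP 1 differed from wild type.

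**Figure D2:**
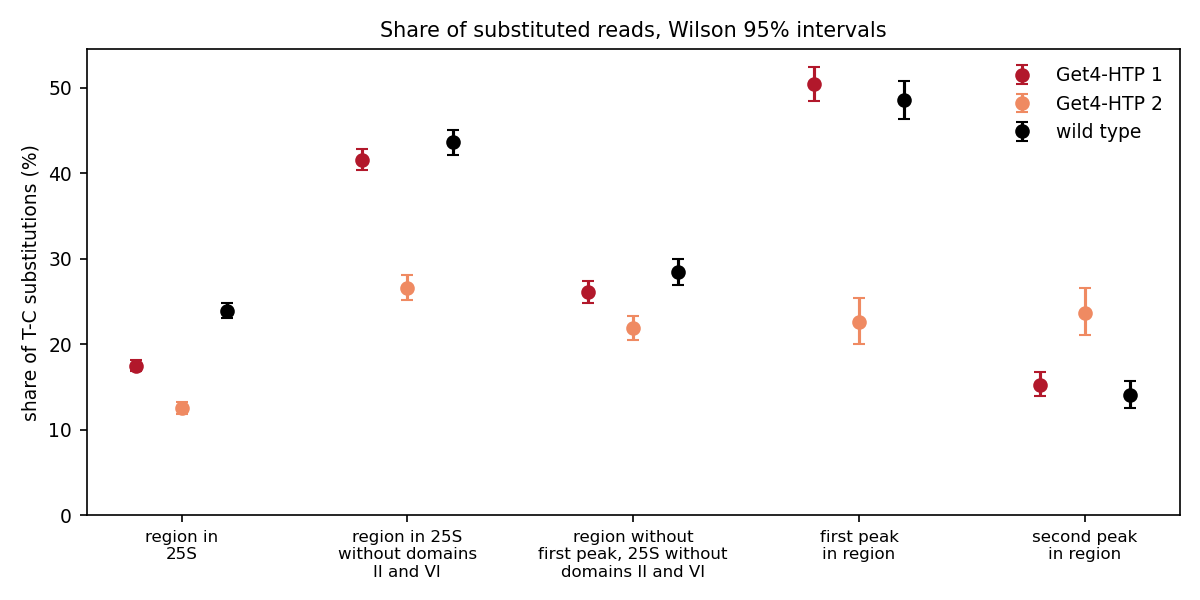
Shares of substitutions, in percent, with Wilson 95% intervals for counting error, for Get4-HTP 1, Get4-HTP 2 and wild type. The region share of 25S is 17.5% and 12.5% in the Get4-HTP libraries and 23.9% in wild type, and the first peak's share of the region is 50.5% in Get4-HTP 1 and 22.6% in Get4-HTP 2, against 48.6% in wild type.

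The first peak, nucleotides 2532 to 2581, was the dominant crosslink site of the region in Get4-HTP 1 and in wild type and was not called in Get4-HTP 2. A peak was a run of at least 15 positions with at least 2 times the mean depth of the 25S rRNA, again without nucleotides 1391 to 1454. Get4-HTP 1 exceeded this depth from 2532 to 2581 and wild type from 2536 to 2581. The peak reached 1019 hits in Get4-HTP 1 and 140 in Get4-HTP 2, against 825 in wild type, which was 7.81, 1.79 and 11.0 times the mean 25S depth of each library. Its 17 T positions held 1221 of the region's substitutions in Get4-HTP 1, or 50.5% (48.5 to 52.4), and 213 in Get4-HTP 2, or 22.6% (20.1 to 25.4), against 942 in wild type, or 48.6% (46.3 to 50.8). The ratio of that share to wild type was 1.04 (0.978 to 1.10) in Get4-HTP 1, an interval that includes 1, and 0.466 (0.411 to 0.529) in Get4-HTP 2. As a share of 25S the peak was lower in both Get4-HTP libraries, at 8.83% and 2.83%, against 11.6% in wild type, with ratios of 0.760 (0.702 to 0.824) and 0.244 (0.211 to 0.282). Its share of the region thus differed from wild type by less than the counting error in Get4-HTP 1, but its share of 25S did not. Get4-HTP 1 shared its run code with wild type, and run code and replicate cannot be told apart here.

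Inside the first peak, a core of 21 nucleotides was marked off by the steepest changes in wild type depth. Its sequence is shown because it holds T2541, T2550, T2553 and T2558, positions where Get4-HTP 2 differed from the other libraries.
Core of the first peak, 2540 to 2560: attttccacgttctagcattc
The bounds of the core are the largest step up and the largest step down of the wild type profile, so a core above its shoulders in wild type follows from the choice, and the values below are a description. Hits passed from 287 to 696 between nucleotides 2539 and 2540 in Get4-HTP 1, from 102 to 126 in Get4-HTP 2, and from 172 to 654 in wild type. The mean depth of the core was 919 hits in Get4-HTP 1 and 105 in Get4-HTP 2, against 763 in wild type. The 21 nucleotides before it had 243 and 99.8 hits in the Get4-HTP libraries and 143 in wild type, and the 21 after it had 452 and 116 hits against 236. Get4-HTP 1 had a core depth of 2.65 times its mean shoulder, and Get4-HTP 2 had 0.971 times, against the 4.03 times in wild type that the choice of bounds favours. Substitutions in the core counted 734 in Get4-HTP 1 and 71 in Get4-HTP 2, against 707 in wild type, whereas the 3′ shoulder counted 394 and 94 against 187.

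The second peak, nucleotides 2853 to 2888, was found in every library. It was called at 2859 to 2885 in Get4-HTP 1 and 2855 to 2885 in Get4-HTP 2, against 2853 to 2888 in wild type. Its maximum was 365 hits at 2872 in Get4-HTP 1 and 223 hits at 2875 in Get4-HTP 2, against 261 hits at 2873 in wild type, at 2.80, 2.85 and 3.48 times the mean 25S depth. It held 370 substitutions, or 2.68% of 25S, in Get4-HTP 1 and 223, or 2.97%, in Get4-HTP 2, against 273, or 3.37%, in wild type. The ratios were 0.795 (0.682 to 0.927) and 0.881 (0.740 to 1.05), so the peak was lower in Get4-HTP 1, while the interval of Get4-HTP 2 included 1. Within the region its share was 15.3% (13.9 to 16.8) in Get4-HTP 1 and 23.7% (21.1 to 26.5) in Get4-HTP 2, against 14.1% (12.6 to 15.7) in wild type.

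The other stretches of the region moved unequally. Between the peaks, 518 substitutions in Get4-HTP 1 and 310 in Get4-HTP 2, against 523 in wild type, gave ratios of 25S shares of 0.581 (0.516 to 0.654) and 0.640 (0.558 to 0.733), so this stretch was lower in both Get4-HTP libraries. Downstream of the second peak, 207 and 98 substitutions in the Get4-HTP libraries, against 108 in wild type, gave ratios of 1.12 (0.892 to 1.42) and 0.979 (0.746 to 1.28). Both intervals include 1. Upstream of the first peak, 104 and 97 substitutions, against 94 in wild type, gave 0.649 (0.492 to 0.857) and 1.11 (0.840 to 1.48). This stretch was thus lower in Get4-HTP 1, while the interval of Get4-HTP 2 included 1. With the first peak taken out of both the region and the 25S total, the region held 9.52% of substitutions in Get4-HTP 1 and 9.97% in Get4-HTP 2, against 13.9% in wild type. With domains II and VI also taken out of the total, these shares were 26.1% and 21.9%, against 28.4% in wild type. The ratios were then 0.917 (0.853 to 0.985) and 0.769 (0.708 to 0.836), so how near the Get4-HTP libraries were to each other depended on the total.

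In bins of 50 nucleotides, no bin of the region differed at least 2-fold from wild type, in its share of 25S hits, in both Get4-HTP libraries. The count of bins lower in both was 0 of 12, against 2 of 66 in the whole 25S rRNA (3.03%), and the count of bins higher in both was 0 of 12, against 4 of 66 (6.06%). With so few bins called anywhere on 25S, a count of 0 does not set the region apart. The ratio was below 1 in both Get4-HTP libraries for 9 of 12 bins, against 13 of 54 in the rest of 25S, and above 1 in both for 2 of 12, against 20 of 54. The lowest pair of the region by mean log2 ratio was at 2651 to 2700, with 2234 hits in Get4-HTP 1 and 843 in Get4-HTP 2, against 2591 in wild type. Its ratios were 0.502 and 0.319, so that Get4-HTP 1 was just short of 2-fold there. Without a pseudocount this bin would count as lower in both. The highest pair was at 2451 to 2500, with 1560 and 1497 hits against 735 in wild type, and ratios of 1.21 and 1.89.

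**Figure D3:**
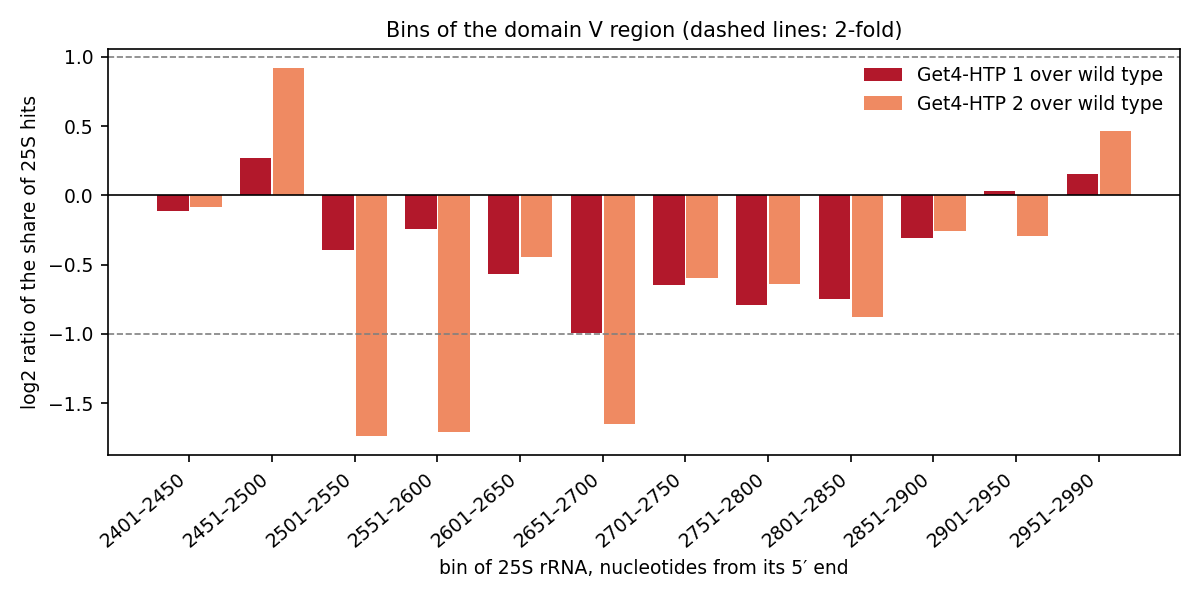
Log2 of the ratio of each Get4-HTP library to wild type in the share of 25S hits, for 12 bins across the region by their position in 25S, with dashed lines at 2-fold. Both bins over the first peak are much lower in Get4-HTP 2 (ratios 0.300 and 0.306) than in Get4-HTP 1 (0.760 and 0.846), and only the bins at 2451 to 2500 and 2951 to 2990 are above wild type in both libraries.

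Crosslinks are read at single uridines by the T-to-C substitutions, and a token such as T2875C gives the T of the reference, its position in 25S and the base read. Substitutions were spread over most of the T positions of the region. Of its 164 T positions, 120 were substituted in all 3 libraries and 4 in none, and 18 in Get4-HTP 1, 26 in Get4-HTP 2 and 18 in wild type had no substitution. The 5 leading positions of each library held 25.9% of the region's substitutions in Get4-HTP 1 and 28.1% in Get4-HTP 2, against 24.6% in wild type. Of the T positions with at least 100 hits, 39 in Get4-HTP 1, 30 in Get4-HTP 2 and 44 in wild type, the median substituted share was 5.96% and 3.78%, against 7.66% in wild type. The rest of the 25S rRNA had medians of 7.14% and 4.62%, against 6.16% in wild type, so by medians the region lay below the rest of 25S in both Get4-HTP libraries and above it in wild type. Pooled over all T positions, the region's substituted share was 10.3% and 10%, against 10.8% in wild type, and that of the rest of 25S was 12.3% and 10.9%, against 12.7% in wild type. The pooled shares thus put the region below the rest in every library, and the direction in wild type depended on the measure. Each kept read carries 1 substitution, so reads over more T positions give a lower pooled share. T made up 27.8% of the region and 25.2% of the rest of 25S, so the pooled order cannot be read as a difference in crosslinking. With at least 30 hits in place of 100, the region's median over that of wild type gave 1.04 for Get4-HTP 1, which was no longer below wild type, and 0.571 for Get4-HTP 2.

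T2875, the fifth nucleotide of the GATGTCGG motif in the second strand of the ring, was the leading crosslinked position in both Get4-HTP libraries and the second in wild type. It was substituted in 142 of 359 hits in Get4-HTP 1, or 39.6% (34.6 to 44.7), and in 115 of 223 hits in Get4-HTP 2, or 51.6% (45.0 to 58.0), against 93 of 259 hits in wild type, or 35.9% (30.3 to 41.9). By substituted share of hits, the interval of Get4-HTP 2 lay above that of the other Get4-HTP library and of wild type. T2875 made up 5.87% of the region's substitutions in Get4-HTP 1 and 12.2% in Get4-HTP 2, against 4.79% in wild type. As a share of 25S, however, it was below wild type in Get4-HTP 1 (ratio 0.896) and above it in Get4-HTP 2 (ratio 1.33). The intervals of both 25S shares overlapped that of wild type. The T is in capitals below to show its place in the motif.
T2875 with 10 nucleotides on each side, 2865 to 2885: ttcttcgatgTcggctcttcc

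T2558, near the 3′ end of the core, was the leading position of wild type and was lower in both Get4-HTP libraries. It held 99 substitutions in 817 hits (12.1%) in Get4-HTP 1 and 4 in 78 hits (5.13%) in Get4-HTP 2, against 127 in 704 hits (18%) in wild type. Get4-HTP 1 had 4.09% of its region substitutions there and Get4-HTP 2 had 0.425%, against 6.55% in wild type. Naming the top position of 1 wild type library favours a higher value there than in the Get4-HTP libraries. As a share of the region, the other leading positions of the core were nearer to wild type in Get4-HTP 1 than in Get4-HTP 2. T2541 had 121 and 21 substitutions against 92 in wild type, or 5.00% and 2.23% of the region against 4.74%. T2550 had 104 and 8 against 86, or 4.30% and 0.850% of the region against 4.43%, and T2553 had 85 and 8 against 76, or 3.51% and 0.850% against 3.92%. As a share of 25S all 3 were below wild type in both Get4-HTP libraries, with ratios of 0.772 and 0.246 at T2541, 0.709 and 0.100 at T2550, and 0.656 and 0.114 at T2553.

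Past the core, T2565, T2570 and T2571 had a different order. T2565 held 5.21% of the region's substitutions in Get4-HTP 1 and 0.638% in Get4-HTP 2, against 2.78% in wild type, so the Get4-HTP libraries lay on opposite sides of wild type. T2570 held 5.17% and 4.36%, against 2.53% in wild type, and T2571 held 4.67% and 3.72%, against 2.94%. These adjacent uridines were the only ones of the first peak's 7 leading positions with a higher share of the region in both Get4-HTP libraries, but as a share of 25S both were below wild type in Get4-HTP 2, with ratios of 0.903 and 0.662. Read per hit, T2571 was close between libraries. It was substituted in 31.5% of 359 hits and 29.9% of 117 hits in the Get4-HTP libraries, and in 31.5% of 181 hits in wild type. T2570 was substituted in 125 of 377 hits in Get4-HTP 1 and 41 of 117 hits in Get4-HTP 2. In wild type it was substituted in 49 of 195 hits, a lower share than in either Get4-HTP library.

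**Figure D4:**
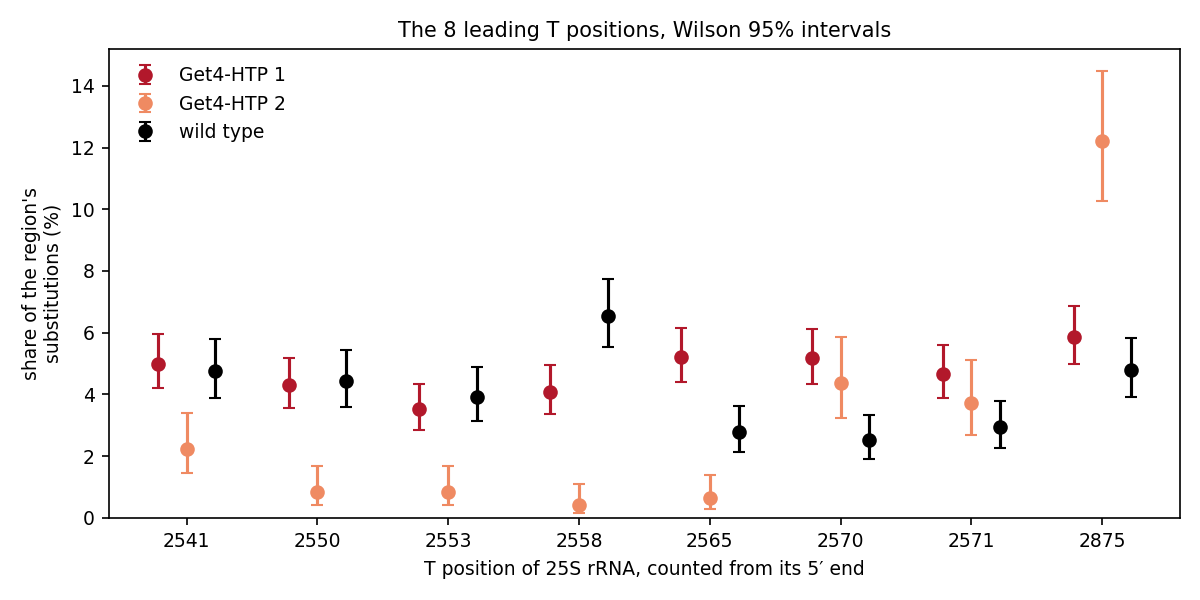
Share of the region's substitutions, in percent, at the 8 leading T positions, in order of position, for Get4-HTP 1, Get4-HTP 2 and wild type. T2875 leads with 12.2% in Get4-HTP 2, and T2541 to T2565 of the first peak are low in that library, at 2.23% or less.

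Few T positions had a lower share of 25S substitutions in both Get4-HTP libraries. The count was 7 of 164 in the region, against 14 of 856 over the 25S rRNA (1.64%), and the count of positions higher in both was 0 of 164, against 6 of 856 (0.701%). A position counted as lower where the Wilson interval of its share of 25S substitutions lay below that of wild type in each Get4-HTP library, and as higher where it lay above. Of the 7, T2543, T2544, T2551, T2558 and T2559 lay in the core of the first peak, T2860 lay in the second peak, and T2655 lay between them. As a share of the region's own substitutions, which leaves out signal elsewhere on 25S, T2543 and T2558 remained. Against wild type, Get4-HTP 2 alone had 16 lower positions and Get4-HTP 1 alone had 12.

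Some sparsely covered uridines had high substituted shares, and T2701 was above 50% in all 3 libraries. T2701 was substituted in 42 of 78 hits in Get4-HTP 1, or 53.8% (42.9 to 64.5), and in 21 of 32 hits in Get4-HTP 2, or 65.6% (48.3 to 79.6), against 38 of 59 hits in wild type, or 64.4% (51.7 to 75.4). The 3 intervals overlapped. T2655 was substituted in 44.9% of 49 hits and 60% of 15 hits in the Get4-HTP libraries, against 60% of 55 hits in wild type. High substitution at both positions was thus present in the untagged library. Each kept read carries 1 substitution, so a T with few other T positions nearby takes more of the reads that cover it. T2701 is the only T from 2691 to 2711, so its high share cannot be read as stronger crosslinking.

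T2472 and T2955 had higher substituted shares in Get4-HTP 2 than in the other libraries. T2472 was substituted in 10 of 45 hits in Get4-HTP 1, or 22.2% (12.5 to 36.3), and in 30 of 40 hits in Get4-HTP 2, or 75.0% (59.8 to 85.8), against 2 of 15 hits in wild type, or 13.3% (3.74 to 37.9). In Get4-HTP 2 the depth rose from 11 to 39 hits at 2460 and fell from 31 to 12 at 2497. Many of its reads over T2472 thus began at one place, and the interval takes them as independent. T2955, the sixth nucleotide of the GGGTTTAGA motif in the third strand of the ring, was substituted in 13 of 56 hits, or 23.2% (14.1 to 35.8), and in 33 of 55 hits, or 60% (46.8 to 71.9), against 6 of 21 hits in wild type, or 28.6% (13.8 to 50). The intervals of Get4-HTP 1 and wild type overlapped at both positions, and at T2955 those of Get4-HTP 2 and wild type did as well, so neither was a difference between tagged and untagged cells in both replicates. At T2629, just 3′ of the P loop, the order was another one, with 18 of 34 hits (52.9%) in Get4-HTP 1 and 9 of 29 hits (31.0%) in Get4-HTP 2, against 5 of 26 hits (19.2%) in wild type.

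**Figure D5:**
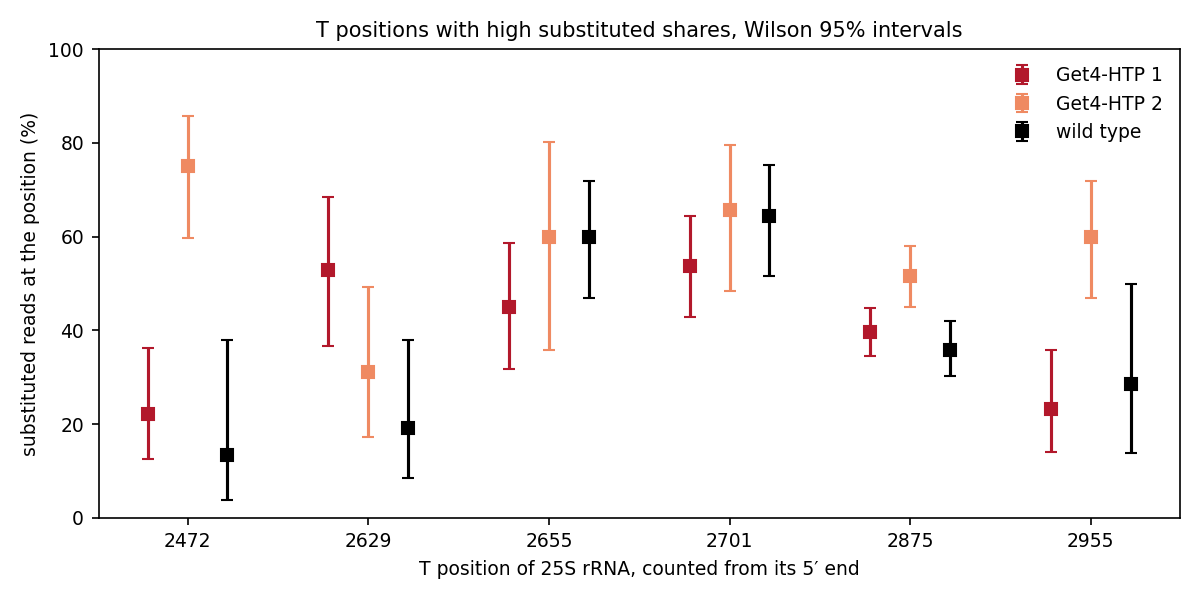
Percent of hits substituted at 6 T positions of the region, with Wilson 95% intervals for counting error, for Get4-HTP 1, Get4-HTP 2 and wild type. T2701 is high in all 3 libraries (53.8%, 65.6% and 64.4%), while T2472 and T2955 are high in Get4-HTP 2 (75.0% and 60%). Each kept read carries 1 substitution, so these shares also depend on how many other T positions lie nearby.

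The surroundings of the other highly substituted positions are given to show the bases next to the crosslinked T, in capitals.
T2472, 2462 to 2482: agtgggagctTcggcgccagt
T2629, 2619 to 2639: gggcggcacaTctgttaaacg
T2655, 2645 to 2665: gcagatgtccTaaggggggct
T2701, 2691 to 2711: aacaaaagggTaaaagccccc
The base 3′ of the crosslinked T differed between the region and the rest of 25S. A T followed by C made up 34.3% of the region's substitutions in Get4-HTP 1 and 40.1% in Get4-HTP 2, against 33.0% in wild type, although 33 of the 164 T positions (20.1%) have that neighbour. In the rest of 25S, where 19.4% of the T positions do, these shares were 9.09% and 15.4%, against 11.0% in wild type. The excess was present in tagged and untagged cells, and T2565, T2571 and T2875, among the leading positions, precede a C. They held 126, 113 and 142 substitutions in Get4-HTP 1 and 6, 35 and 115 in Get4-HTP 2, against 54, 57 and 93 in wild type. The excess thus rested in part on a few deep positions, and a preference for the neighbouring base was not tested. Other neighbours differed too. A T followed by G made up 12.9%, 15.7% and 12.9% of the region's substitutions in Get4-HTP 1, Get4-HTP 2 and wild type. In the rest of 25S it made up 40.7%, 34.6% and 34.6%. A T preceded by T made up 33.8%, 31.5% and 33.5% in the region, against 17.5%, 11.3% and 16.0% in the rest.

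The landmarks of the peptidyl transferase centre differed among themselves in each library. Windows reached 10 nucleotides beyond each motif. The second strand was the deepest, at 2.41 times the mean 25S depth in Get4-HTP 1 and 2.45 in Get4-HTP 2, against 3.04 in wild type, since it lies in the second peak. The other 4 landmarks were below the 25S mean in every library, between 0.345 and 0.868 times that mean.

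The catalytic strand around GATAACTGG was lower in both Get4-HTP libraries. It held 56 substitutions in Get4-HTP 1 and 35 in Get4-HTP 2, against 74 in wild type, for ratios of 25S share of 0.444 (0.314 to 0.628) and 0.510 (0.342 to 0.762). The A loop was lower in one Get4-HTP library, with 72 and 20 substitutions against 45 in wild type and ratios of 0.939 (0.647 to 1.36) and 0.480 (0.283 to 0.811). The P loop held 53 and 34 substitutions against 29 in wild type, with ratios of 1.07 (0.682 to 1.68) and 1.26 (0.771 to 2.07), whose intervals both include 1. The third strand held 56 and 54 substitutions against 22 in wild type, with ratios of 1.49 (0.913 to 2.44) and 2.65 (1.61 to 4.34), and the substitutions of T2955 were part of this count.

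Sharp steps in depth mark where many reads begin or end, and some of them were shared by all libraries while the steepest were not. Of the 6 largest steps up in each library, 4 were common to all 3, at 2519, 2845, 2847 and 2853, and of the 6 largest steps down, 2 were common, at 2887 and 2890. The largest step up in Get4-HTP 1 and wild type, at 2540, was not among those of Get4-HTP 2, and the largest step down of wild type, by 247 hits at 2561, was a step up by 44 hits in Get4-HTP 2. At 2845 the hits passed from 25 to 116 in Get4-HTP 1, from 21 to 77 in Get4-HTP 2 and from 36 to 85 in wild type. This step lies 2 nucleotides 3′ of U2843, which is known in yeast as an m3U made by the methyltransferase Bmt6. Whether the modification took part in the step was not tested. T2843 itself was substituted in 1 of 26 hits in Get4-HTP 1 and 1 of 22 hits in Get4-HTP 2, against 2 of 36 hits in wild type. U2634, the m3U made by Bmt5, was substituted in 4 of 19 hits and 0 of 15 hits in the Get4-HTP libraries, against 1 of 17 hits in wild type, too few reads to order them.

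Over the 164 T positions, the substitution counts of Get4-HTP 1 were most like those of wild type. Pearson's r across positions was 0.896 for Get4-HTP 1 and wild type, 0.482 for Get4-HTP 2 and wild type, and 0.597 for both Get4-HTP libraries with each other. Spearman's rho for the same pairs was 0.825, 0.610 and 0.691. Without the 17 T positions of the first peak, Pearson's r was 0.863, 0.811 and 0.870, while Spearman's rho was 0.769, 0.548 and 0.647, so the pairs came closer in r but not in rank. Get4-HTP 2 had 941 substitutions in the region, against 2420 in Get4-HTP 1 and 1940 in wild type. Counting error at lower counts can lower a correlation, and its part in these values was not tested. Positions covered by the same reads are not independent and the libraries share the base composition of one RNA, and these values are a description only. Get4-HTP 1 and wild type, the most alike pair over the whole region, were also the pair with the same run code, and the part of the run in this likeness was not tested.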

How the data were processed

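Per the file headers and the labels, the deposited values were raw counts that the authors made with pyCRAC's pyPileup: for every ribosomal RNA position, the counts of reads covering it (hits), of substitutions and of deletions. Per the study's methods, reads were trimmed with Flexbar, reads under 18 nt were discarded, and PCR duplicates were collapsed by their random barcodes. At most 1 mismatch was allowed, and only reads with a single T-C substitution were kept. Every count is thus of reads with a T-C substitution, and reads without one are hidden. Positions are called crosslinked here by their substitutions, and whether each substitution came from a crosslink was not tested. The submitters' processing notes name Bowtie2 2.3.4.2, while a header names a Bowtie1 folder. The pyCRAC version and the genome build are not given in the sources used here, so no chromosome coordinates are printed. The sequence is that of the deposited files, and the gene's name is from the RefSeq R64 table.

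Counts were summed, divided by the library's 25S total without nucleotides 1391 to 1454 (or by mapped reads), and set as Get4-HTP over wild type, with Wilson and log-normal ratio intervals at 95%, in Python 3.11.15 with numpy 2.4.6, scipy 1.17.1, pandas 2.3.3 and matplotlib 3.10.9. The calculation was tested on simulated data. Precision was set by depth: a count of 0 of the 25S substitutions allowed up to 0.0217% in Get4-HTP 1, 0.0399% in Get4-HTP 2 and 0.0370% in wild type (3 counts). Get4-HTP 2 carries its number in the labels and the other library was numbered 1 by order. The other tagged strains of the study were not analysed here.

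Positions named were the 8 T positions with the highest mean share of the region's substitutions, each library's leading T, any T with at least 100 hits and 50% substituted, called bins, peaks and landmarks. T2472, T2543, T2544, T2551, T2559, T2629, T2634, T2655, T2701, T2843, T2860 and T2955, the steps, the core, the neighbouring bases and the total without domains II and VI were chosen after their values were seen. The members and lists were chosen with earlier results of these data known.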

Additional observations from a re-analysis of the deposited data

How the results depend on the processing

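No paired analysis was possible because wild type had 1 library and no test was run. Of the values that answer a comparison, 44 recomputed values stayed within their limits, 20 moved and 1 reversed. For a ratio the limit was the SD of the 2 Get4-HTP ratios. Leaving out 1 of the 2 libraries always stays within that limit unless the direction turns. Ratios counted as stayed on leaving out a library therefore do not measure stability. The mean ratio of the region's share of substitutions, 0.628, was 0.374 with nucleotides 1391 to 1454 kept, 0.137 over all mapped reads and 0.782 without domains II and VI, and 0.523 to 0.732 with either Get4-HTP library left out. The hit share, 0.651, was 0.381 and 0.149 with the stretch kept and over mapped reads, and 0.534 to 0.768. The relative depth, 0.597, was 0.336 with the stretch kept, and 0.473 to 0.722. Scaled to mapped reads, the hits ranged from 0.0644 to 0.234. Bins lower in both libraries numbered 0, but 1 with bins of 25 nucleotides, 1 by substitutions, 1 without a pseudocount, 12 scaled to mapped reads, and 3 without Get4-HTP 1 (0 without Get4-HTP 2). Called peaks numbered 5 over the libraries and 3 at 3 times the mean or against a mean with the stretch kept. The ratio of median substituted shares, 0.636, was 0.939 with positions pooled, and 0.494 to 0.778. The first peak's share of the region, 0.753, ranged from 0.466 to 1.04, turning direction without Get4-HTP 2. T positions lower in both numbered 7, but 25 with the stretch kept, 3 without domains II and VI, 2 as shares of the region 16 without Get4-HTP 1 and 12 without Get4-HTP 2, and those higher numbered 0, but 2 without Get4-HTP 1. Single positions that turned were T2541 (0.471 without Get4-HTP 1 and 1.05 without Get4-HTP 2), T2565 (0.744 as a share of 25S, 0.229 without Get4-HTP 1 and 1.87 without Get4-HTP 2), and T2571 as a share of 25S (0.913). Fewer samples must agree when a library is left out. The cause of the other changes was not tested. Depth limited T positions with few hits most.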
